A study of Aspergillus niger with 6 samples.

Results

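In Aspergillus niger mycelium taken from a malate fermentation, 63 gene IDs averaged at least 20 CPM although they had averaged at most 5 CPM in the seed culture. CPM is a gene's read count divided by the total count of its library, times 1000000. The 63 are those IDs beginning with ANI_1_ whose mean was at most 5 CPM in seed and at least 20 CPM in fermentation, and whose lowest fermentation library lay above their highest seed library. They are drawn from 10505 IDs in the table, 10489 of which begin with ANI_1_. No ID was dropped by the last condition, since all 63 IDs that met both limits were also separated between the states.

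The strain is called RG0095 in titles but GR0095 among the other labels. It is listed on the ATCC 1015 background with a deletion of oahA, entries for pyc and mdhC, and a construct named Pgpd-C4T318. Fermentation mycelium (72 h, n = 3) had been moved from seed medium into fermentation medium. Seed mycelium (20 h, n = 3) was grown from fresh spores. Both states carry the same genotype and no other strain is included, so the alleles cannot be set against an unmodified strain, and medium and culture time change together.

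Aspergillus niger is a filamentous fungus that secretes large amounts of organic acids. L-malic acid is formed when pyruvate is carboxylated to oxaloacetate by pyruvate carboxylase (pyc) and the oxaloacetate is reduced by malate dehydrogenase (mdhC). The enzyme oahA splits oxaloacetate to oxalate, a competing product. In filamentous fungi, genes of one biosynthetic pathway are often neighbours on a chromosome. None of the IDs (0 of 10505) matched an entry in the reference gene table, so products, positions and sequences are not given for any of the 63, and what an ID encodes is not stated below. Gene lengths are also not used, so an order of IDs by CPM is an order of read counts and not of transcripts per gene length. The measurements are of whole mycelium, in which more RNA per cell and more cells expressing a gene cannot be told apart.

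The 6 libraries held 16828913 to 20267348 counts. Fermentation replicate 1 lay farthest from its group. Its TMM normalization factor was 0.879, and the other libraries had factors of 0.989 to 1.05. Results that touch it are given with that in view.

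Because the 63 IDs were chosen on fermentation and seed levels, the contrast between these states is a description here and no test is attached to it. All 63 passed the low-count filter. That all 63 were also called higher by edgeR's quasi-likelihood test follows from how they were chosen, and nothing is read from it. For the background, among all 8963 IDs tested, 33.9% were called higher, 66.9% were called in either direction, and in 31.0% the lowest fermentation library lay above the highest seed library. The ratio of pooled CPM, fermentation over seed, ran from 5.07 to 12238 with a median of 19.6. It was at least 8 for 54 IDs, at least 32 for 23, at least 100 for 9 and at least 1000 for 4.

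Rising from so low a level to this one was uncommon. Of 3237 ANI_1_ IDs that averaged at most 5 CPM in seed, 2870 also averaged at most 5 CPM in fermentation, 304 lay above 5 but under 20 CPM, and the 63 (1.95%) reached 20. Seen from the other side, the 63 were 1.22% of the 5185 ANI_1_ IDs that averaged at least 20 CPM in fermentation. Most of the 63 were moderate in fermentation, with a median of 37.8 CPM. Of these, 40 averaged 20 to under 50 CPM, 12 averaged 50 to under 100, 10 averaged 100 to under 1000, and 1 lay above that.

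Hardly any of them was silent in seed. Over the 3 seed libraries they had 1 to 278 counts, with a median of 134, and 61 of the 63 had counts in every seed library. None (0) was without counts in all 3. The mean seed level was under 1 CPM for 13 IDs, 1 to under 2 CPM for 11 and 2 to 5 CPM for 39. "Switched on" therefore fits a few of them, and the rest were raised from a low but measured level.

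**Figure D1:**
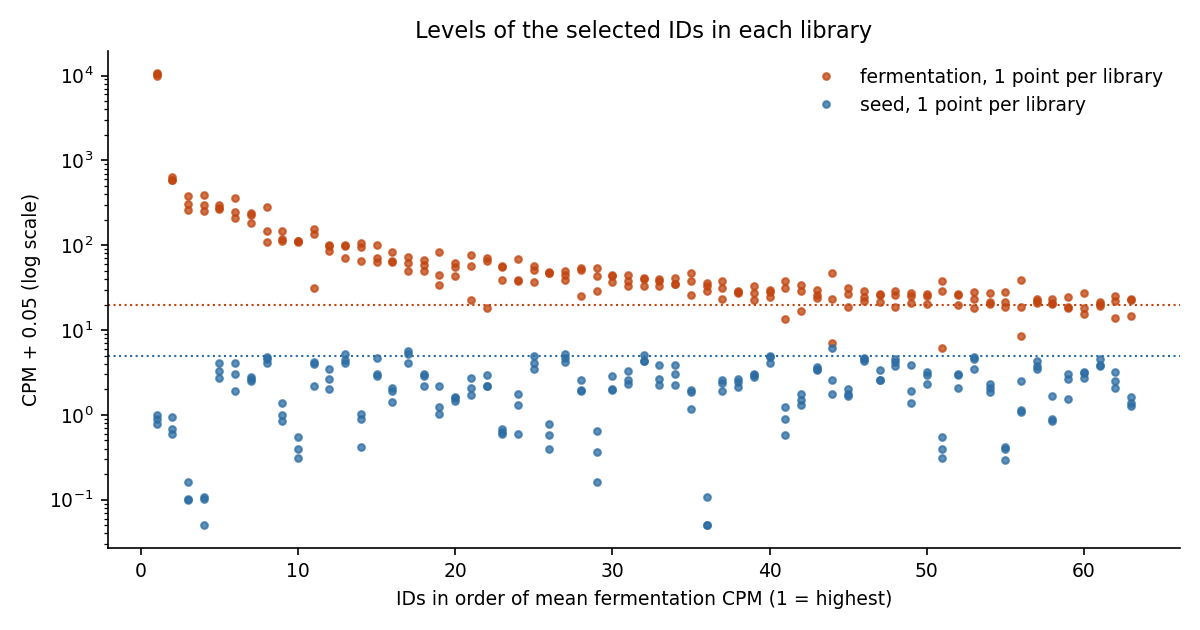
Levels of the 63 IDs in each of the 6 libraries, ordered by mean fermentation CPM. The vertical axis is CPM + 0.05 on a log scale, each point is 1 library, and the dotted lines mark the limits of 20 CPM (fermentation) and 5 CPM (seed). A single ID stands near 10338 CPM in fermentation, the others at 636 CPM or below. Seed levels are in a different order, and their relation to fermentation levels was not tested.

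Together the 63 IDs took 1.40%, 1.55% and 1.51% of the counts in fermentation replicates 1, 2 and 3, against 0.0149%, 0.0141% and 0.0152% in seed replicates 1, 2 and 3. The mean share was 1.49 ± 0.0802% in fermentation and 0.0147 ± 0.000576% in seed (SD, n = 3). Counting error is small beside this, with Wilson 95% half-widths of at most 0.00575 percentage points per fermentation library and 0.000577 per seed library. These intervals cover counting error only.

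A single ID supplied most of that share. ANI_1_1956184 held 9961, 10424 and 10630 CPM in fermentation replicates 1, 2 and 3, against 0.740, 0.937 and 0.852 CPM in seed. It was therefore near 1% of each fermentation library and made up 69.6% of all fermentation counts of the 63, against 0.575% of their seed counts. By counts it ranked 5 of all IDs in fermentation and 8621 in seed. Without it the other 62 IDs held 0.452 ± 0.0531% of fermentation counts and 0.0147 ± 0.000582% of seed counts (SD, n = 3).

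The most counted ID belongs to a run of neighbours along the ID numbers. The last 3 digits of an ANI_1_ ID take 18 values, here called endings, and 10482 IDs with digits before the ending were put in order of those digits within each ending. The 7 others have none. The file does not say what the numbers mean. In this order 6 successive IDs with the ending 184, from ANI_1_1954184 to ANI_1_1966184, all belong to the 63. They were the only run of 3 or more. The 6 held 1.20 ± 0.0461% of fermentation counts and 0.000535 ± 6.92e-05% of seed counts (SD, n = 3), which is 80.5% of the fermentation counts of the 63 and 3.63% of their seed counts.

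Levels within the run differed widely. ANI_1_1954184, the first, had 111, 109 and 113 CPM in fermentation replicates 1, 2 and 3, against 0.264, 0.493 and 0.341 CPM in seed. It is followed by ANI_1_1956184, described above. ANI_1_1958184 had 253, 394 and 295 CPM in fermentation, against 0.0528, 0 and 0.0568 CPM in seed, which is 2 seed counts in all. ANI_1_1962184, the next in the order, had 260, 386 and 310 CPM in fermentation, against 0.0528, 0.0493 and 0.114 CPM in seed, or 4 seed counts in all. These 2 IDs were near each other in level in every fermentation library, and both were highest in replicate 2 and lowest in replicate 1. That order was common in CPM from column sums. Replicate 2 was the highest fermentation library for 57.1% of the 63 and 49.7% of other IDs of at least 20 CPM in fermentation. Replicate 1 was the lowest for 66.7% and 65.0% of them. In seed both had too few counts for their levels to be compared.

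The far side of the run had more seed counts. ANI_1_1964184 had 581, 636 and 587 CPM in fermentation replicates 1, 2 and 3, against 0.898, 0.543 and 0.625 CPM in seed. ANI_1_1966184, the last, had 266, 275 and 301 CPM in fermentation, against 2.69, 3.26 and 4.09 CPM in seed. Pooled ratios in the run thus went from 84.4 (95% interval 73.1 to 97.9) for ANI_1_1966184 to 12238 (9230 to 16598) for ANI_1_1956184. The ratio of ANI_1_1958184 was 8951, with an interval of 2477 to 73916 that overlaps the one of ANI_1_1956184, and that of ANI_1_1962184 was 4537 (1772 to 16655). Intervals of pooled ratios, here and below, cover counting error only and leave out the differences between replicates.

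Both flanks differed from the run in level or in direction. Directly before it, ANI_1_1952184 was abundant in both states, with 114, 146 and 114 CPM in fermentation replicates 1, 2 and 3, against 238, 179 and 166 CPM in seed, and it was not called higher. Directly after it, ANI_1_1968184 was called higher by edgeR with a pooled ratio of 9.86 (95% interval 6.45 to 15.7), at a low level of 3.98, 4.18 and 4.33 CPM in fermentation against 0.370, 0.247 and 0.682 CPM in seed. The 3 IDs after that one had at most 0.395 CPM in any library of either state and were not tested. Of these, ANI_1_1970184 had a pooled ratio of 7.63 (1.75 to 69.2) over 2 seed counts and ANI_1_1974184 one of 10.9 (1.55 to 473) over 1 seed count, while ANI_1_1972184 had no fermentation counts.

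**Figure D2:**
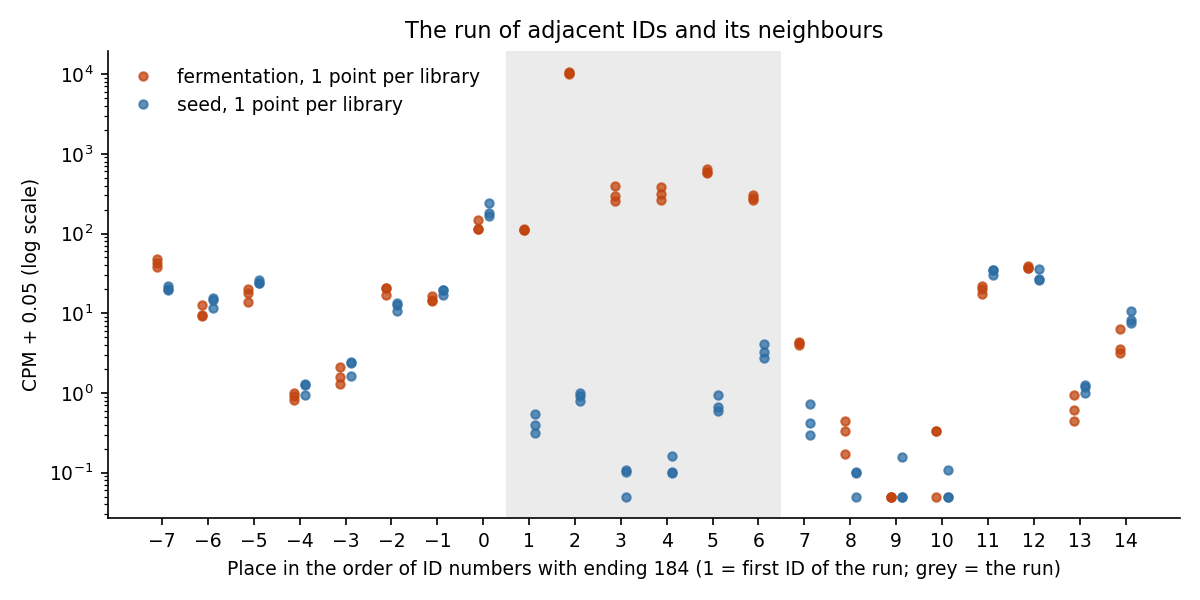
CPM + 0.05 (log scale) in each library for the 6 IDs of the run (places 1 to 6, grey) and the 8 IDs on either side, in the order of ID numbers with ending 184. Fermentation points in the run lie between 109 and 10630 CPM and seed points at or below 4.09 CPM, while no flanking ID shows such a gap at such levels.

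The selected IDs were spread over all endings. Every one of the 18 endings held at least 1 of the 63, and they made up between 0.138% (ending 064) and 1.45% (ending 114) of an ending's IDs, against 0.601% of all IDs in the order. The ending 184 had 9 members among 787 IDs and the ending 104 had 8 among 739. Of the 57 IDs outside the run, 6 (10.5%) had another of the 63 directly beside them, in 3 pairs, and 51 had none. No test is attached to this share.

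Within each pair the fermentation libraries came in a different order for the 2 IDs. The orders are those of CPM from column sums and were not computed with TMM scaling. ANI_1_1010034 had 65.1, 94.1 and 105 CPM in fermentation replicates 1, 2 and 3, against 0.370, 0.987 and 0.852 CPM in seed. Its neighbour ANI_1_1012034 had 65.8, 82.3 and 62.9 CPM in fermentation, against 2.01, 1.87 and 1.36 CPM in seed. The first was highest in fermentation replicate 3 and the second in replicate 2. On either side of this pair the levels ran the other way. ANI_1_1008034 had 32.4, 34.9 and 34.5 CPM in fermentation, against 249, 323 and 282 CPM in seed, and ANI_1_1014034 had 1 count over the fermentation libraries, against 1.37, 1.28 and 1.42 CPM in seed.

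In the second pair, ANI_1_1514104 had 62.3, 72.3 and 49.9 CPM in fermentation replicates 1, 2 and 3, against 5.55, 4.05 and 5.17 CPM in seed, and ANI_1_1516104 had 25.1, 54.5 and 51.5 CPM in fermentation, against 1.90, 1.87 and 2.501 CPM in seed. Both were highest in fermentation replicate 2, but the lowest was replicate 3 for the first and replicate 1 for the second. For ANI_1_1514104 the highest library depends on the scaling, since the TMM factor was 0.879 for fermentation replicate 1 and 1.04 for replicate 2. In the third pair, ANI_1_876114 had 23.3, 38.1 and 31.6 CPM in fermentation, against 2.32, 1.87 and 2.56 CPM in seed, and ANI_1_878114 had 21.5, 27.9 and 18.5 CPM in fermentation, against 0.370, 0.247 and 0.341 CPM in seed. Both were again highest in fermentation replicate 2, and the lowest was replicate 1 for the first and replicate 3 for the second.

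Many IDs beside the selected ones, though not selected themselves, were higher in fermentation too. There were 109 IDs directly beside a selected one, of which 96 were tested. Of the 109, 39 (35.8%) averaged at most 5 CPM in both states, against 27.5% of the 10426 ANI_1_ IDs outside the 63. By edgeR's test 48 of the 96 were called higher and 23 lower (24.0%), and over all 8900 tested IDs outside the 63 the shares were 33.4% higher and 33.2% lower. Calls of at least 4-fold higher made up 22 of the 96 (22.9%), against 5.67% of all IDs tested and 445 of the 8900 outside the 63. Of these 22, 12 averaged at least 20 CPM in fermentation and had failed the limit in seed, and 10 stayed under 20 CPM in fermentation. Calls of at least 4-fold lower made up 8.33% of the 96, against 4.42%. The median log2 fold change of the 96 was 0.51, against 0.0017 over the tested IDs outside the 63.

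The share was lower a few places away. The percentage called at least 4-fold higher was 12.8% at 2 places from a selected ID, 11.6% at 3 and 5.62% at 4, and from 5 to 10 places it varied between 4.44% and 14.0%. Counted only from the 57 IDs outside the run, it was 22.3% (21 of 94) at 1 place and 12.1% at 2 places. These shares are descriptions with no test. Without the strand setting of the authors' counting, reads of overlapping gene models cannot be told apart.

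**Figure D3:**
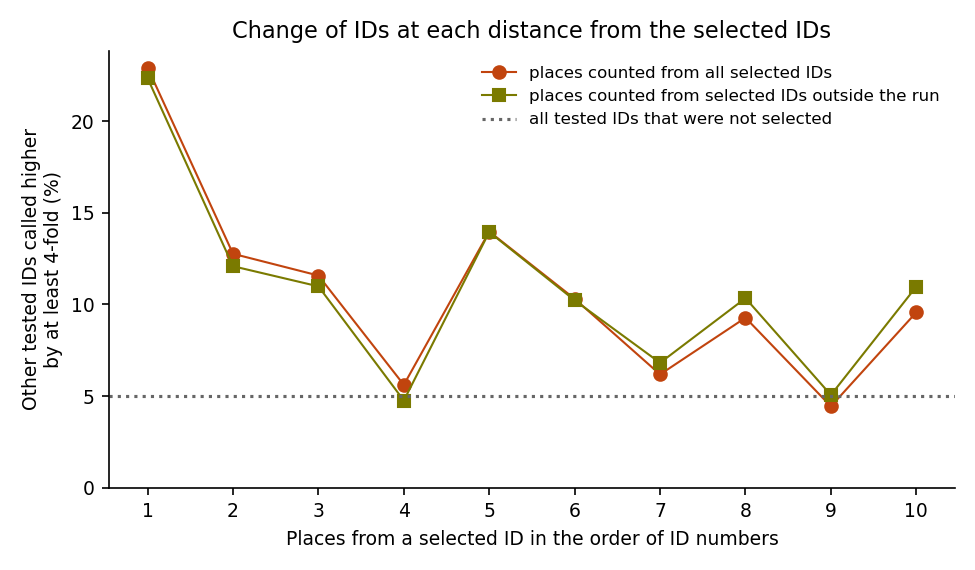
Percentage of tested IDs outside the 63 that were called higher by at least 4-fold in fermentation (edgeR), by distance in places along the ID numbers from all 63 selected IDs (circles) or from the 57 outside the run (squares). The dotted line is the share over all tested IDs outside the 63 (445 of 8900), and the share is highest, at 22.9% and 22.3%, directly beside a selected ID.

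After the run, the most counted of the 63 in fermentation were 4 IDs with no selected neighbour. ANI_1_840034 had 212, 361 and 247 CPM in fermentation replicates 1, 2 and 3, against 4.02, 3.01 and 1.88 CPM in seed. ANI_1_1710094 had 183, 229 and 243 CPM in fermentation, against 2.48, 2.62 and 2.73 CPM in seed. Both were lowest in fermentation replicate 1. ANI_1_28054 had 281, 109.6 and 148 CPM in fermentation, against 4.70, 4.05 and 4.55 CPM in seed. It was the only one of the 63 (1.59%) at least 2-fold higher in fermentation replicate 1 than in the mean of the other 2. Among other IDs of at least 20 CPM in fermentation the share was 0.605%, both by column sums. With TMM scaling the shares were 1.59% of the 63 and 1.33% of the other IDs. ANI_1_30024 had 146, 119 and 112 CPM in fermentation, against 1.32, 0.937 and 0.796 CPM in seed, a pooled ratio of 123 (95% interval 94.8 to 162).

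The ID with the fewest seed counts was not an abundant one. ANI_1_2292104 had 29.1, 36.3 and 32.6 CPM in fermentation replicates 1, 2 and 3, against a single count over the 3 seed libraries, in replicate 3. Its pooled ratio was 1858, with a counting interval of 333 to 73425. It is 2 places from another of the 63, ANI_1_2296104, and the ID between them, ANI_1_2294104, was under 1 CPM in every library of both states.

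Fermentation cultures did not share one level for these IDs. The coefficient of variation (CV, SD over mean) across the 3 fermentation libraries had a median of 18.2% over the 63, and ran from 1.25% to 78.0%. Over the other 5122 ANI_1_ IDs of at least 20 CPM in fermentation the median was 12.2%. At 20 to under 50 CPM the medians were 17.4% for 40 of the 63 and 13.7% for 1782 other IDs, at 50 to under 100 CPM 19.4% for 12 and 12.1% for 1311, and at 100 to under 1000 CPM 17.2% for 10 and 10.9% for 1892. Counting error alone gives the 63 a CV of at most 5.34%, and 3 of them varied less than their own counting error. Just outside the seed limit, ANI_1_442044 and ANI_1_1212164 had CVs of 59.7% and 20.9%. Just outside the fermentation limit, ANI_1_1256124 and ANI_1_1258104 had 33.7% and 35.0%. The higher median is therefore not read as particular to the 63. All of these CVs are from column sums, and a limit on the mean can admit an ID through 1 high library.

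By CPM from column sums the steadiest were ANI_1_1856144, then ANI_1_1954184 of the run, and ANI_1_2296104. ANI_1_1856144 had 47.4, 48.5 and 47.6 CPM in fermentation replicates 1, 2 and 3, against 0.528, 0.740 and 0.341 CPM in seed. ANI_1_2296104 had 27.6, 28.8 and 27.9 CPM in fermentation, against 2.59, 2.07 and 2.39 CPM in seed. In the order named, the CVs in fermentation were 1.25%, 1.64% and 2.12%. These are the 3 IDs that varied less than their own counting error, which was 3.47%, 2.28% and 4.53%. CVs were not computed with TMM scaling, so the order holds for column sums only.

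The 3 most variable were all low in fermentation replicate 1. ANI_1_280184 had 7.01, 46.95 and 23.3 CPM in fermentation replicates 1, 2 and 3, against 6.13, 1.73 and 2.56 CPM in seed. Its lowest fermentation library was only 1.14 times its highest seed library, the narrowest gap among the 63. ANI_1_6094 had 8.50, 39.3 and 18.5 CPM in fermentation, against 2.43, 1.04 and 1.08 CPM in seed. ANI_1_3344014 had 6.06, 37.6 and 28.7 CPM in fermentation, against 0.264, 0.493 and 0.341 CPM in seed. All 3 reached the limit of 20 CPM only with replicate 2 counted. They are among the 10 of the 63 that were lost under another scaling or with a library left out.

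Fermentation replicate 1 was the lowest fermentation library for 42 of the 63 IDs (66.7%), a share near the 65.0% of other IDs of at least 20 CPM. With TMM scaling the shares were 46.0% and 38.4%. For large gaps the shares lay further apart. In replicate 1, 8 of the 63 (12.7%) were at least 2-fold below the mean of replicates 2 and 3, against 1.27% of the other IDs, and with TMM scaling 7 of the 63 (11.1%) were, against 0.644%. All 8 lay outside the run, and the largest gap was a log2 difference of -2.45 for ANI_1_3344014. In replicate 2, 4 of the 63 (6.35%) were at least 2-fold above the mean of the other 2 libraries, against 0.215% of the other IDs. With TMM scaling 3 were above and 1 was below by that much. In replicate 3 none (0) differed so far in either direction under either scaling. Of the 4 IDs high in replicate 2, ANI_1_280184, ANI_1_6094 and ANI_1_3344014 reached the limit of 20 CPM only with replicate 2 counted. They are also among the 8 that were low in replicate 1. The other IDs among those 8 were kept under every scaling and with each library left out. How far the limit on the mean accounts for either share was not tested, and neither share is read as a trait of the 63.

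**Figure D4:**
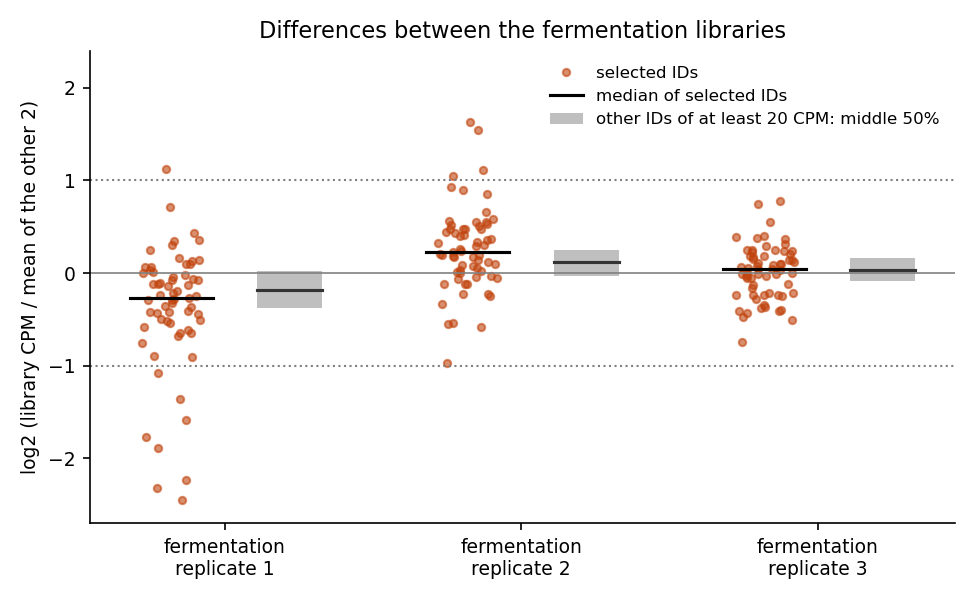
Log2 ratio of each fermentation library to the mean of the other 2, in CPM, for each of the 63 IDs (points, black line at the median) beside the middle 50% of the 5122 other IDs of at least 20 CPM (grey bar, dark line at the median). The dotted lines mark 2-fold differences, and 8 of the 63 lie below -1 in replicate 1.

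The limits cut through a continuum. Just inside the seed limit, ANI_1_1514104 averaged 61.5 CPM in fermentation and 4.92 CPM in seed, and ANI_1_1284164 averaged 44.4 CPM in fermentation and 4.64 CPM in seed. Just outside it, ANI_1_442044 averaged 64.3 CPM in fermentation and 5.01 CPM in seed, and ANI_1_1212164 averaged 26.6 CPM in fermentation and 5.05 CPM in seed. Just inside the fermentation limit were ANI_1_1254134 at 20.1 CPM and ANI_1_448104 at 20.2 CPM. Just outside it were ANI_1_1256124 at 19.9 CPM and ANI_1_1258104 at 19.2 CPM. The same rule chose 53 of the 63 under each of 4 other scalings and with each library left out in turn, and 80 IDs were chosen under at least 1 of these settings.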

How the data were processed

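The authors' deposited table holds raw read counts per gene ID, whole numbers with no normalization, 1 column per library. Per the submitters' processing notes, HTSeq, HISAT2, StringTie, Trimmomatic, DESeq, Cufflinks, Bowtie2 and SAMtools were among the tools, with no role or order stated. For these the version, as well as build and strand setting, was not given in the sources used here, and per the labels' protocols the library kit was stranded. CPM was computed from column sums. Fold changes and calls come from edgeR 4.0.16 (quasi-likelihood test, TMM, filterByExpr with a minimum count of 10, Benjamini-Hochberg adjusted p under 0.05 over 8963 IDs), fitted on all 6 libraries and tested on simulated data. Intervals of pooled ratios are exact Clopper-Pearson 95% intervals on counts summed over the libraries of a state, so they cover counting error only. No pair of replicates agreed within sampling noise (chi-square per degree of freedom 11.7 or more). The labels call the libraries biological replicates, with no further detail.

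The members, the lists and the tests were chosen with earlier results of these data known. The IDs named are the 10 highest in fermentation, the 5 largest ratios, the 3 highest and 3 lowest CVs, the 2 on each side of each limit and the ends and maximum of each run. The rest of the run, the pairs and the flanking IDs were named after their values were seen. Since no ID has a name, planned gene groups could not be formed.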

Additional observations from a re-analysis of the deposited data

How the results depend on the processing

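The number of IDs chosen follows the limits. A seed limit of 2.5 CPM left 33 IDs, all 33 called higher by edgeR, with 1.28% of fermentation counts and 0.00417% of seed counts. A fermentation limit of 40 CPM left 30, all 30 called, with 1.40% and 0.00637%. A seed limit of 10 CPM gave 156, all 156 called, with 2.03% and 0.0835%, and then 33 IDs had an adjacent selected ID and there were 2 runs of 3 or more. A fermentation limit of 10 CPM gave 157, all 157 called, with 1.61% and 0.0439%, and then 26 had an adjacent selected ID and there were 3 runs. The share of seed counts moved by more than its SD with other scalings, to 0.0169% with TMM and with RLE, 0.0134% with upper-quartile scaling and 0.0154% without the 10 most abundant IDs in the column sums. With each library left out in turn it ran from 0.0138% to 0.0168%, the number of IDs from 57 (without fermentation replicate 2) to 68 and the share of fermentation counts from 1.44% to 1.54%. The number with an adjacent selected ID ran from 10 to 12, and there was 1 run each time. The number with an adjacent selected ID was 14 in the order of tested IDs alone, and also with 1 other ID allowed between. All 63 were called with DESeq2, without a low-count filter and under both other normalizations, which their choice on the same libraries makes near certain and which is no sign of stability. Deviations of same-numbered libraries correlated across IDs at r = 0.0507, 0.0449 and 0.0668, and the labels tie equal numbers to nothing, so they were not paired. With a replicate block 5890 IDs were called in all, against 5995, among them all 63. Of the 6 libraries, not every one correlated best with its own number. The 24 IDs named by rule kept their sign and call under each alternative that refitted them, and the other IDs named were not followed there. All 24 had been chosen as separated between the states in these same libraries, so this too is no sign of stability. Depth limits the ratios of IDs with 1 to 4 seed counts, whose intervals are wide.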
